A study of Mus musculus with 12 samples.

Results

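The imprinted growth-control genes are genes that are read from only 1 of the parental copies and that set how much a tissue grows. The list held 10 names, with Ndn at their centre: Ndn, Peg3, Dlk1, Meg3, H19, Igf2, Cdkn1c, Grb10, Plagl1 and Mest. They were selected on measured values as well as on their known imprinting, because the age and genotype pattern of Ndn in these libraries was known when the list was drawn up. Of the 10 named genes, 9 had a row among the 22310 gene symbols of the count files, and H19 was not analysed here. Of these 9, 8 passed the filter on low counts, as did 13540 genes in all; the exception was Dlk1, with at most 8 reads in any library.

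RNA was measured by sequencing in 12 libraries of satellite cells, the resident stem cells of skeletal muscle, from the hindlimb muscles of C57BL/6 mice. The libraries fell into 4 groups of 3: young wild type, old wild type, young Hoxa9 knock-out and old Hoxa9 knock-out. Young mice were 3 to 4 months old and old mice 22 to 28 months. Mice of every group had been injured, with 50 µl of 1.2% barium chloride placed at about 20 sites in the hindlimb muscles, and the cells were collected 3 days later, so all groups held activated cells and none was uninjured. Hoxa9 is a homeobox transcription factor of limb and body patterning. The labels do not say which part of Hoxa9 was removed, in which cells, or how many mice gave each library, so the p-values measure only the spread between these libraries, which may be technical.

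At an imprinted gene, DNA methylation laid down in the egg or sperm marks 1 parental copy, and the mark decides which copy is transcribed. Genes read from the father's copy, such as Igf2, Peg3, Mest, Dlk1 and Plagl1, mostly promote growth of the embryo, whereas genes read from the mother's copy, such as Cdkn1c and Grb10, mostly restrain it. Many of them are high in fetal tissue, fall after birth, and return in adult stem cells and in regenerating muscle. Gene-level reads do not show which parental copy they came from, so loss of imprinting could not be seen in these data. In bulk libraries such as these, fewer cells of a type and less RNA per cell cannot be told apart.

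The start regions of 3 genes are shown from RefSeq (mouse build GRCm38.p6), 250 bases before to 50 bases after an annotated start, on the strand of the gene and 5′ to 3′, with each CG, the dinucleotide that carries imprint methylation, in capitals. Ndn is shown because its age difference went opposite ways in the 2 genotypes, Igf2 because its level was lowest in the knock-out, and Peg3 because its window held a motif of the Plagl1 protein. RefSeq starts were matched for 8 of the 10 symbols; Cdkn1c and H19 were not matched.
Ndn, chr7:62348027-62348326, plus strand: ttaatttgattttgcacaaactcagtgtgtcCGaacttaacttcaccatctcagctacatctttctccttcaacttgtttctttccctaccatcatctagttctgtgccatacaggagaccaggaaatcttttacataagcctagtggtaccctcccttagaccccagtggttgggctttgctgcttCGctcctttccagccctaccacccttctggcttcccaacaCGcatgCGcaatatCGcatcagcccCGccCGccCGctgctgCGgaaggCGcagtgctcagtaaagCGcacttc
Peg3, chr7:6730370-6730669, minus strand: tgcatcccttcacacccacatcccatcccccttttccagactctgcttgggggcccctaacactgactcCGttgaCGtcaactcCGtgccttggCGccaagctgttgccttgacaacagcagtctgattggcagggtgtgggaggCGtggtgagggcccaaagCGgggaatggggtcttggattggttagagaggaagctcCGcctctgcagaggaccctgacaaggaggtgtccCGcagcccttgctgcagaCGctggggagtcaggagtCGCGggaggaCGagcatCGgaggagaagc
Igf2, chr7:142658755-142659054, minus strand: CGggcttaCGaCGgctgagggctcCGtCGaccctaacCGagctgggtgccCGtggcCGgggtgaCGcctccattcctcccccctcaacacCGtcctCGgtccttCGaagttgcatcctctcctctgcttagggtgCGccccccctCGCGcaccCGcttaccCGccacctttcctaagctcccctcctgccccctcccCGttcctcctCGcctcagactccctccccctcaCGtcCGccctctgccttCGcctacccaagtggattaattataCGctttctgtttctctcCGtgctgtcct
The Ndn window held 11 CG, the Peg3 window 13 and this Igf2 window 24, the richest of the 4 annotated Igf2 starts, against a median of 7 (quartiles 3 and 20) over 32851 promoters of the same length. The motif GGGGCCCC, a known binding sequence of Plagl1 that reads the same on both strands, lay at position 50 of the Peg3 window, counted from 1 at its 5′ end, and in no other matched member window. It was present in 354 of the 32851 promoters (1.08%). Reads were counted per gene, so they did not show which of the Igf2 starts was in use.

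The libraries held 4193433 to 20337015 reads in genes, and 32.2% to 70.8% of the reads assigned to 1 place fell outside genes. Several features of the libraries move with the groups and touch the results. Reads of Y-linked genes summed to 238.5 and 230.6 CPM in old knock-out replicates 2 and 3 and to at most 9.10 CPM elsewhere. These sums are in counts-per-million units of unscaled library size. Other CPM values use scaled library size, except those given with a read total. The rank correlation across genes between GC content and a library's deviation from the all-library mean was 0.24 to 0.523 in the 6 wild-type libraries and -0.571 to -0.149 in the 6 knock-out libraries. Lars2, the gene of a mitochondrial leucyl-tRNA synthetase, took 0.0258% to 0.11% of the gene reads of the wild-type libraries and 0.484% to 25.05% of those of the knock-out libraries. Reads of Ttr, which encodes transthyretin and marks choroid plexus, were at 70.7 to 4264 CPM in wild type and at 0 in every knock-out library. All 10 satellite-cell markers were detected in every group, with Pax7 at 201 to 365.5 CPM on average. Hoxa9 itself was at 10.3 ± 2.01 CPM in young wild type, 17.6 ± 4.27 in old wild type, 6.40 ± 0.848 in young knock-out and 5.80 ± 1.08 in old knock-out (SD, n = 3 each), so reads of the gene were still present in the libraries labelled knock-out.

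The measured genes spanned a wide range of levels. Per kilobase of exon, Cdkn1c was the highest in young wild type (696 CPM per kb), followed by Mest (406), Igf2 (337), Grb10 (141), Peg3 (96.4), Plagl1 (71.5), Meg3 (4.22), Ndn (4.03) and Dlk1 (0.0603). Neighbours in that order overlapped between libraries at Grb10 and Peg3, Peg3 and Plagl1, and Meg3 and Ndn. Old wild type held the same order, and there no neighbours overlapped. In both knock-out groups Igf2 stood behind Grb10 and Peg3, at 96.3 CPM per kb in young and 64.3 in old knock-out, and Ndn stood above Meg3, overlapping with it in young knock-out. Peg3 and Igf2 overlapped between libraries in both of those groups. In old knock-out Mest led at 379 CPM per kb, overlapping with Cdkn1c at 305.

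**Figure D1:**
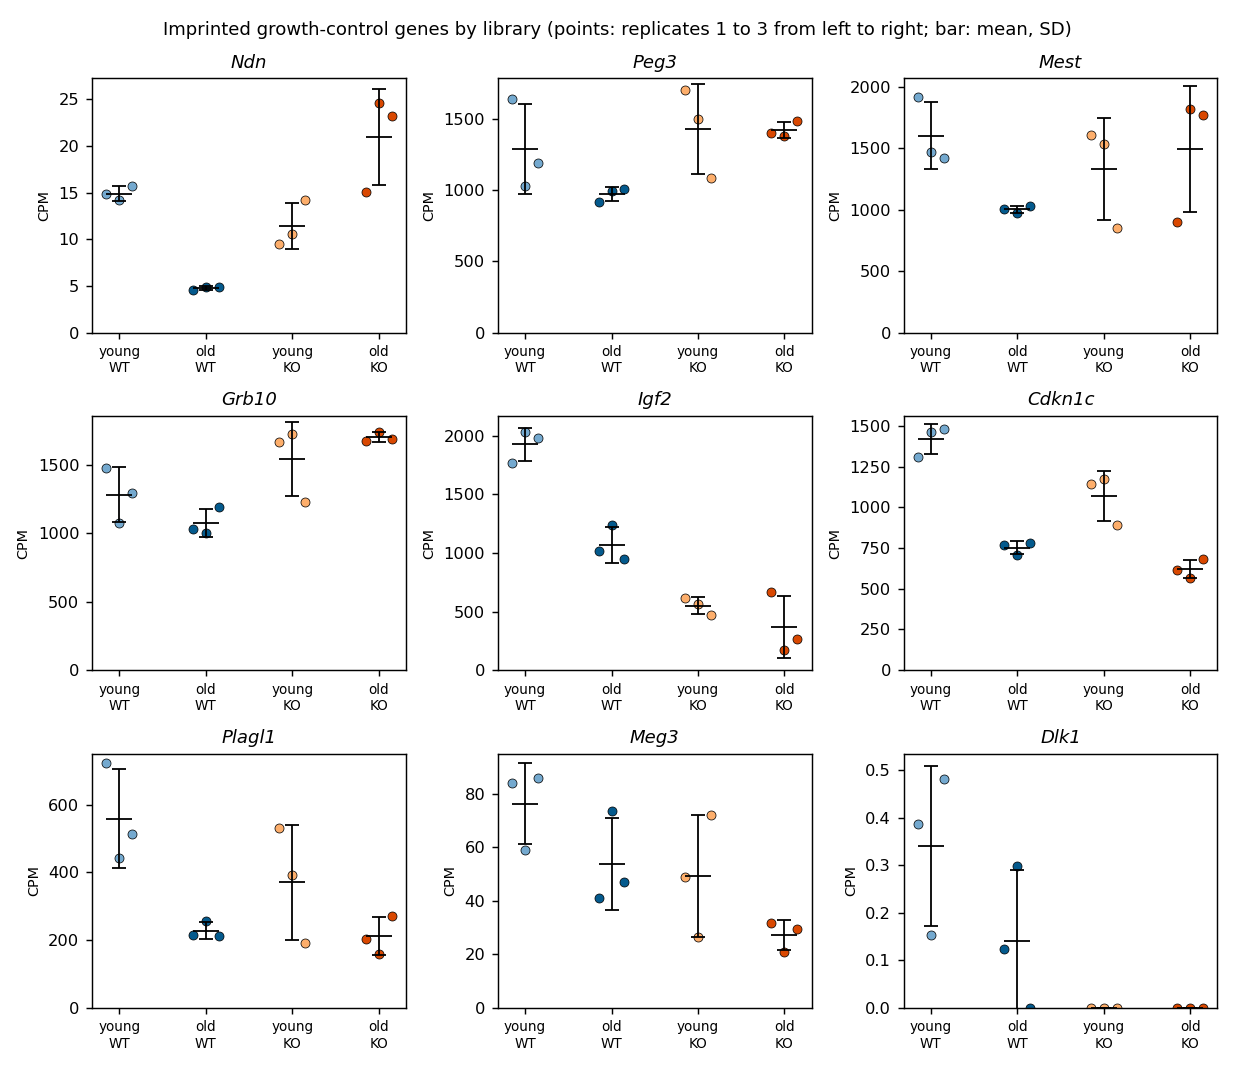
CPM (linear axis from 0) of the measured imprinted genes in each of the 12 libraries; points are replicates 1 to 3 and bars the group mean with its SD (YW and OW, young and old wild type; YK and OK, young and old knock-out). Ndn is lowest in the 3 old wild-type libraries (4.55 to 4.90 CPM), Igf2 is lower in all 6 knock-out libraries (173 to 666 CPM) than in all 6 wild-type libraries (949 to 2036 CPM), and Cdkn1c is lower in old than in young libraries of both genotypes.

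With age in wild-type cells, every one of the 8 tested genes had a lower fitted level in old mice, with a median log2 fold change of -0.76 against 0.01 over all 13540 genes. Ndn and Cdkn1c were past an adjusted p of 0.05 (edgeR's quasi-likelihood test, Benjamini-Hochberg adjustment over all genes), and both were known to be when the list was drawn up. Over all genes 0.805% were called lower and 0.258% higher. The old libraries lay wholly below the young ones for 6 of the 8 genes, all but Meg3 and Grb10, where 13.8% of all genes did so (13.1% lay wholly above). Ndn and Cdkn1c are among the 6 and enter the median, so both values partly reflect how the list was chosen. In old wild type 1 of 10 satellite-cell markers was also called lower (Pax7, -0.72), as were 3 of 10 fibroblast and fibro-adipogenic markers (Cd248 -2.16, Col1a1 -1.71 and Col3a1 -0.74). Satellite-cell markers lay wholly lower for 4 of 10 and wholly higher for 1, Itga7. Pericyte and smooth muscle markers lay wholly lower for 5 of 7 (Kcnj8 called at -2.71) and wholly higher for 1, Myh11. Tendon markers lay wholly lower for 5 of 8. All 8 macrophage markers lay wholly higher, with sums of 110.5 to 118 CPM in old against 20.2 to 37.2 CPM in young wild type, and none was called. The part of these cell types in the lower levels of the imprinted genes was not tested. Between young and old knock-out, 5 of the 8 genes had a lower and 3 a higher fitted level in old mice, with a median of -0.30 against -0.01 over all genes, none of the 8 was called, and 2 of 13540 genes (0.0148%) were called in either direction. Ranges did not overlap for Ndn, higher in old, and Cdkn1c, lower in old, where 6.37% of all genes lay wholly above and 5.22% wholly below. At an unadjusted p under 0.05 there were 1316 such genes in the whole table, and DESeq2 called 139, among them Cdkn1c and Ndn.

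Between knock-out and wild type the genes differed in both directions. In old mice, Ndn and Grb10 were called higher and Igf2 lower in the knock-out, where 9.52% of all genes were called higher and 7.21% lower. Libraries did not overlap for 3 genes that were higher (Ndn, Peg3, Grb10) and 3 that were lower (Meg3, Igf2, Cdkn1c), against 21.6% and 20.4% of all genes. The median was 0.21 against -0.01 over all genes. In young mice Igf2 alone of the 8 was called, and it was lower, where 10.9% of all genes were called higher and 10% lower. Ranges did not overlap for Ndn, Igf2 and Cdkn1c, all lower, against 19.6% of all genes wholly lower and 16.0% wholly higher, and the median was -0.41 against -0.02. With shares of called genes this high, 1 to 3 calls among 8 genes are too few to be read as a result about the list. Whether they exceed the background was not tested. The difference between the genotypes in the age effect (the interaction) was called for 2 of 13540 genes (0.0148%), Ndn and Il1b, the gene of an inflammatory cytokine. For the other 7 tested genes the interaction was not past the threshold, with adjusted p from 0.508 to 0.908.

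Necdin, the product of Ndn, is a MAGE-family protein read from the father's copy that restrains proliferation and promotes survival and differentiation of neurons and myoblasts. In young wild type Ndn was at 14.8, 14.2 and 15.7 CPM in replicates 1 to 3, and in old wild type at 4.55, 4.87 and 4.90 CPM. The replicates of each wild-type group lay close together and the groups far apart, at means of 14.9 ± 0.766 and 4.78 ± 0.193 CPM (SD, n = 3), a log2 fold change of -1.64 ± 0.22 (SE). In young knock-out it was at 9.53, 10.5 and 14.2 CPM (mean 11.4 ± 2.44), with replicate 3 close to the young wild-type range and the others below it. In old knock-out it was at 15.02, 24.6 and 23.2 CPM (mean 21.0 ± 5.19), all above the young knock-out libraries and far above the old wild-type libraries. The age difference in the knock-out was 0.90 ± 0.21 on the log2 scale, opposite in direction to that in wild type. The knock-out minus wild-type difference was 2.13 ± 0.22 in old mice and -0.41 ± 0.21 in young mice. The interaction was 2.54 ± 0.30. These values are given as a description, since they chose the gene.

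The Ndn counts were small, from 49 reads in old wild type replicate 2 to 368 in old knock-out replicate 2. Old knock-out replicates 2 and 3, the highest for Ndn, were also the libraries high in Y-linked reads. Old knock-out replicate 1, with 9.10 CPM of Y-linked reads on unscaled totals, was at 15.02 CPM of Ndn on scaled library size. Without replicates 2 and 3 the interaction was 2.03 and was no longer past the threshold. Without old knock-out replicate 3 and old wild type replicate 2, the libraries with the most reads outside genes, it was 2.45 and was not past the threshold either. It was also not past the threshold when any 1 of the 6 wild-type libraries, or old knock-out replicate 2, was left out, at values of 2.39 to 2.58. The sum of the tendon markers was 113 to 1201 CPM in old knock-out, lowest in replicate 1 as for Ndn, against 40.2 to 55.6 CPM in old wild type. In young mice, where Ndn was lower in the knock-out, it was 222.8 to 393 CPM in the knock-out and 93.2 to 194 CPM in wild type. Pericyte and smooth muscle markers summed to 2058 to 2318 CPM in old knock-out and 1301 to 1583 CPM in old wild type, with 3 of 7 called higher. Macrophage markers summed to 16.7 to 71.5 CPM in old knock-out and 110.5 to 118 CPM in old wild type, with 3 of 8 called lower. The summed fibroblast and fibro-adipogenic markers were 3239 to 3720 CPM in old wild type against 4497 CPM or more in every other library. Col3a1 alone averaged 2487 CPM in old wild type. With age in wild type 8 of these 10 markers were fitted lower and 2 higher. Pdgfra and Ly6a averaged 5.08 and 3.14 CPM in old against 4.39 and 1.85 CPM in young wild type. The part of sex, reads outside genes and these markers in the Ndn pattern was not tested.

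**Figure D2:**
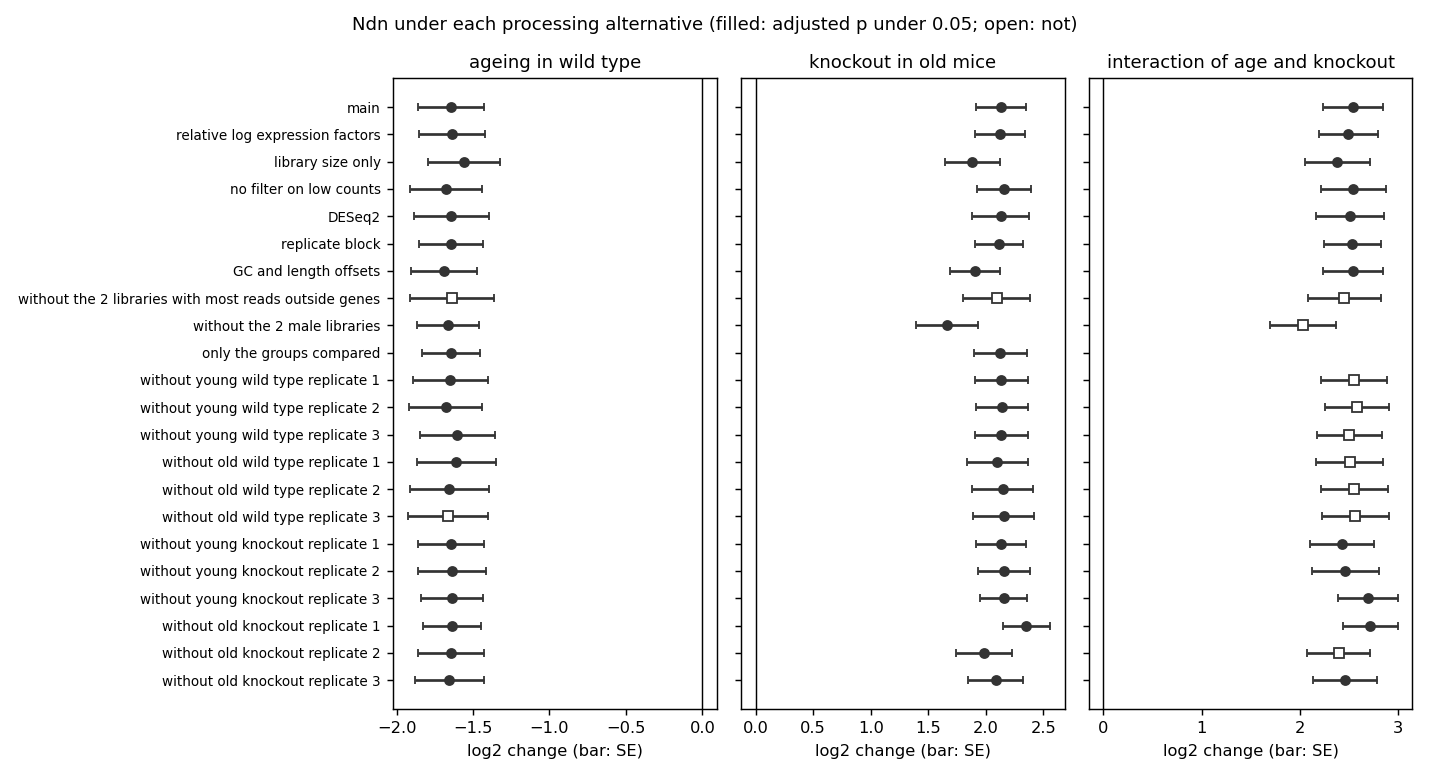
Ndn log2 changes with SE (horizontal axes) for ageing in wild type, knock-out in old mice and their interaction, under each way of processing the data or of leaving out libraries; filled points are past an adjusted p of 0.05. The sign holds throughout, with the interaction between 2.03 and 2.71, while the open points show where the call is lost.

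The genes that flank Ndn in its imprinted cluster were low or did not follow it. Magel2, a second MAGE-family gene, had reads in old wild type only, at 0.21 CPM on average. Mkrn3, a ring-finger gene, was at 1.63 CPM in young and 2.33 in old wild type, and at 2.31 and 2.66 CPM in young and old knock-out. Peg12 was at 44.7 ± 8.80 CPM in young and 38.5 ± 1.57 in old wild type and at 33.7 ± 8.74 and 35.5 ± 9.24 CPM in young and old knock-out, with overlapping libraries. Snrpn, which encodes a splicing protein, fell with knock-out in young mice, from 9.80 ± 1.40 to 5.48 ± 1.13 CPM (log2 fold change -0.86), and was at 6.85 ± 2.33 and 5.92 ± 0.493 CPM in old wild type and old knock-out. Ube3a, a ubiquitin ligase that is imprinted in neurons, rose with knock-out at both ages, by a log2 fold change of 0.70 in old and 0.95 in young mice, and both calls were lost with GC and length offsets (0.11 and 0.02).

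Igf2 encodes insulin-like growth factor II, the fetal growth ligand that is made by myoblasts as they differentiate. It was at 1768, 2036 and 1982 CPM in young and 1021, 1240 and 949 CPM in old wild type. It was at 612, 568 and 473 CPM in young knock-out and at 666, 173 and 265 CPM in old knock-out. All 6 knock-out libraries lay below all 6 wild-type libraries, and the old knock-out libraries were the most scattered. In young mice Igf2 fell with knock-out by 1.81 ± 0.39 on the log2 scale (adjusted p = 0.00849, edgeR's quasi-likelihood test). This call held under each of the 21 alternatives run, with log2 fold changes from -1.90 to -1.45 and an adjusted p of at most 0.0485. In old mice Igf2 fell by 1.54 ± 0.38 (adjusted p = 0.0221). That call was lost with GC and length offsets (-1.28, adjusted p = 0.0666), with no filter (-1.52, adjusted p = 0.0564), with only the groups compared (-1.55, adjusted p = 0.0905), without the libraries with most reads outside genes (-1.23, adjusted p = 0.191), without old wild type replicate 1 (-1.57, adjusted p = 0.0582), without old wild type replicate 2 (-1.42, adjusted p = 0.0703) and without old knock-out replicate 3 (-1.34, adjusted p = 0.0865). Without old knock-out replicates 2 and 3, which are high in Y-linked reads and hold the lowest Igf2, the difference was -0.68 (adjusted p = 0.173). With age, Igf2 differed by -0.85 ± 0.38 in wild type (adjusted p = 0.34) without overlap of the libraries, and by -0.58 ± 0.38 in the knock-out (adjusted p = 0.653) with overlap. The wild-type difference was called with only the groups compared (-0.85, adjusted p = 0.00394) and without old knock-out replicate 1 (-0.84, adjusted p = 0.032). The age difference in the knock-out was -1.36 without old knock-out replicate 1 (adjusted p = 0.0105) and 0.22 without old knock-out replicates 2 and 3.

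Choroid plexus, the fluid-secreting tissue of the brain ventricles, makes much Igf2, and its markers were far higher in wild type than in the knock-out. Ttr was at 1121, 4264 and 2131 CPM in young and at 1657, 2280 and 70.7 CPM in old wild type. The 9 markers summed to 1593 to 6063 CPM in young and 115 to 3489 CPM in old wild type, against 19.2 to 30.1 and 12.9 to 25.9 CPM in young and old knock-out, where Ttr and Otx2 were at 0. All 9 of 9 were called lower in old and 8 of 9 in young knock-out. Within each wild-type group Igf2 followed the order of Ttr: 949, 1021 and 1240 CPM of Igf2 at 70.7, 1657 and 2280 CPM of Ttr in old libraries, and 1768, 1982 and 2036 CPM at 1121, 2131 and 4264 CPM in young ones. The lowest wild-type Igf2, 949 CPM, was in the library with the least Ttr, and the highest knock-out Igf2 was 666 CPM. The part of choroid plexus RNA in the Igf2 difference was not tested.

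**Figure D3:**
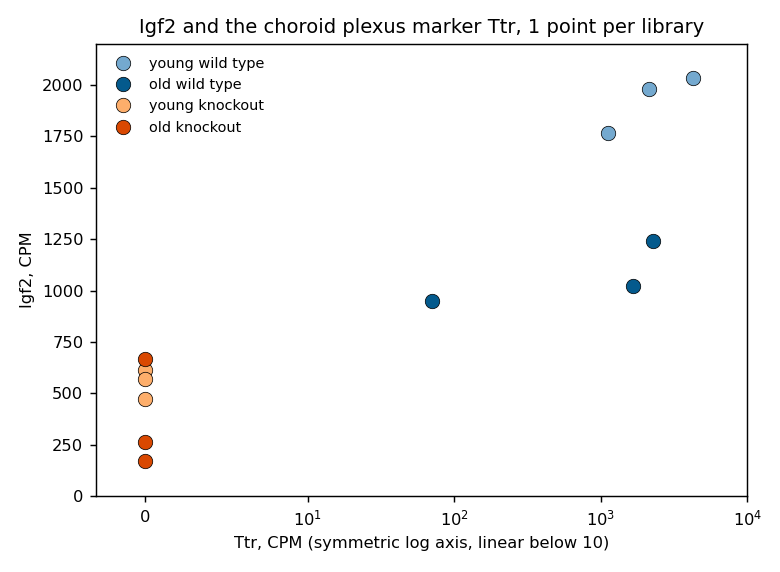
Igf2 CPM (vertical, linear) against Ttr CPM (horizontal, symmetric log axis) with 1 point per library, coloured by group. The 6 knock-out points lie at a Ttr of 0 and an Igf2 of 173 to 666 CPM; the old wild-type library with a Ttr of 70.7 CPM has an Igf2 of 949 CPM.

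Igf2 shares its domain with Ins2, an insulin gene, and with H19. Ins2 had 10 reads over the 6 wild-type libraries and 0 over the 6 knock-out libraries, which allows at most 0.0594 CPM there (3 counts in 50506427 reads); this bound covers counting error only. The receptor that clears Igf2, Igf2r, itself imprinted and read from the mother's copy, was at 1759 ± 252, 1448 ± 20.7, 1924 ± 255 and 1634 ± 213 CPM in young wild type, old wild type, young knock-out and old knock-out, and was called in no comparison.

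Of 12 tested genes of the wider insulin-like growth factor axis, 1 fell with age in wild type, 2 rose and 1 fell with knock-out in old mice, 2 rose and 2 fell with knock-out in young mice, and none was called for age in the knock-out or for the interaction. Over all genes 9.52% rose and 7.21% fell with knock-out in old mice and 10.9% rose and 10% fell in young mice. With age in wild type 0.805% of all genes fell and 0.258% rose. A few knock-out calls among 12 genes, against knock-out shares this high, are not read as a result about the axis. Nor is the 1 age call, which concerns a single gene. Igf1, the related ligand made by many cells of injured muscle, fell with age in wild type and averaged 52.9 ± 20.4 CPM in young and 19.3 ± 4.72 CPM in old mice (-1.46 ± 0.29, adjusted p = 0.0358, edgeR). With knock-out in old mice Igf1 rose by 1.17, a call that was lost with GC and length offsets (0.63, adjusted p = 0.115). Igf2bp2, which binds Igf2 mRNA, fell with knock-out at both ages, by 0.94 in old and 0.78 in young mice on the log2 scale, from 185 ± 28.1 to 97.2 ± 15.6 CPM and from 155 ± 13.2 to 90.0 ± 9.91 CPM. Pik3r1, a regulatory subunit of PI3-kinase, rose by 0.89 in old mice. In young mice Igf2bp3 rose by 1.10, Insr, the insulin receptor, rose by 0.57 and Akt1 fell by 0.42. With GC and length offsets the calls of Pik3r1 (0.68), Igf2bp3 (0.90), Insr (0.38) and Akt1 (0.05) were lost, and those of Igf2bp2 at both ages were kept. The median log2 fold changes of the 12 were -0.15 for age in wild type, -0.04 and 0.14 for knock-out in old and young mice (0.01, -0.01 and -0.02 over all genes).

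Cdkn1c, read from the mother's copy, encodes p57, an inhibitor of cyclin-dependent kinases that holds cells out of the cycle. It was at 1311, 1464 and 1483 CPM in young and 768, 705 and 781 CPM in old wild type, without overlap. In the knock-out it was at 1146, 1173 and 893 CPM in young and 614, 568 and 681 CPM in old mice, again without overlap. The age difference was -0.92 ± 0.14 on the log2 scale in wild type, a value known when the list was made. In the knock-out it was -0.79 ± 0.14 (adjusted p = 0.0658, edgeR). The 2 age effects differed by 0.13 (adjusted p of the interaction 0.867), so no difference between genotypes was detected. The wild-type call was lost without young replicate 3 (-0.89, adjusted p = 0.0579), and without old replicate 1 (-0.94, 0.0619), 2 (-0.87, 0.0779) or 3 (-0.95, 0.0671). It was also lost without the 2 libraries with most reads outside genes (-0.85, adjusted p = 0.144). In the knock-out the age difference was called in 5 alternatives. These were GC and length offsets (-0.90, adjusted p = 0.0366), DESeq2 (-0.83, 3.5e-06) and no filter (-0.83, 0.0242). The others left out young knock-out replicate 3 (-0.92, 0.014) or old knock-out replicate 1 (-0.80, 0.0494). Knock-out libraries lay below wild-type libraries at both ages, with differences of -0.28 in old (adjusted p = 0.195) and -0.41 in young mice (adjusted p = 0.0571). With GC and length offsets these differences changed sign, to 0.03 and 0.09. The old difference was called with library size only (-0.54, adjusted p = 0.037), and the young one with DESeq2 (-0.365, adjusted p = 0.0319).

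Grb10, also read from the mother's copy outside the brain, encodes an adaptor that dampens signalling of the insulin and Igf1 receptors. In old wild type it was at 1035, 1002 and 1192 CPM and in old knock-out at 1678, 1743 and 1693 CPM, without overlap and with little scatter in the knock-out. It rose with knock-out in old mice by 0.66 ± 0.16 (adjusted p = 0.0172, edgeR), and by 0.65 with GC and length offsets (adjusted p = 0.0208). The call was lost without old wild type replicate 1 (0.64, adjusted p = 0.0708), old wild type replicate 2 (0.61, 0.0703) or old knock-out replicate 3 (0.69, 0.0627). It was also lost without old knock-out replicates 2 and 3 (0.65, adjusted p = 0.206), without the 2 libraries with most reads outside genes (0.63, adjusted p = 0.167), and with scaling by library size alone (0.41, adjusted p = 0.137), a scaling that shifted the median of all genes to -0.26. In young wild type it was at 1478, 1079 and 1293 CPM and in young knock-out at 1672, 1729 and 1233 CPM, overlapping, with a difference of 0.27 (adjusted p = 0.264). Grb10 did not pass the test for age in wild type (-0.25, adjusted p = 0.527) or in the knock-out (0.14, adjusted p = 0.819). Cobl, a neighbour of Grb10, fell with knock-out in old mice by 0.72, opposite to Grb10.

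Peg3, read from the father's copy, encodes a zinc-finger protein that marks progenitor cells of many adult tissues, muscle among them. It was at 1638, 1026 and 1190 CPM in young and 916, 995 and 1008 CPM in old wild type, a lower range that did not overlap but nearly touched that of the young libraries. In the knock-out it was at 1699, 1496 and 1082 CPM in young and 1401, 1378 and 1483 CPM in old mice. Its difference with age was -0.40 ± 0.19 in wild type (adjusted p = 0.367) and -0.01 in the knock-out (adjusted p = 0.997). Old knock-out libraries lay above old wild-type libraries by 0.55 ± 0.19 (adjusted p = 0.0643, edgeR), just short of the threshold. This difference was called in 4 alternatives. These were DESeq2 (0.53, adjusted p = 0.0393), only the groups compared (0.54, 0.00748), and leaving out young wild type replicate 1 (0.55, 0.0401) or young knock-out replicate 3 (0.57, 0.0253). Usp29, the gene next to Peg3, was at 1.498 to 5.29 CPM over all libraries and showed no call.

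Plagl1 is a zinc-finger transcription factor, read from the father's copy, that binds regulatory regions of several other imprinted genes. It was at 723, 441 and 512 CPM in young and 214, 257 and 212 CPM in old wild type. The old libraries lay wholly and well below the young ones, and the difference was -1.30 ± 0.33 (adjusted p = 0.0889, edgeR). It was called in 4 alternatives. These were DESeq2 (-1.29, adjusted p = 0.00288), only the groups compared (-1.30, 0.00104), and leaving out young knock-out replicate 1 (-1.30, 0.0429) or 3 (-1.29, 0.0068). In the knock-out Plagl1 was at 530, 391 and 191 CPM in young and 202, 159 and 271 CPM in old mice, overlapping because of young replicate 3. The difference was -0.82 ± 0.33 (adjusted p = 0.444), and -1.16 without that replicate, where it was called (adjusted p = 0.0472). Old knock-out and old wild type overlapped, with a difference of -0.12 ± 0.33 (adjusted p = 0.835).

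Mest, read from the father's copy, encodes a hydrolase-like protein of the endoplasmic reticulum that rises when fat and mesodermal tissues expand. It was at 1917, 1471 and 1421 CPM in young and 1004, 975 and 1031 CPM in old wild type, without overlap, a difference of -0.68 ± 0.27 (adjusted p = 0.267, edgeR). With only the groups compared this difference was called (-0.68, adjusted p = 0.0143). In young knock-out Mest was at 1605, 1532 and 852 CPM. In old knock-out replicates 2 and 3 held 1817 and 1769 CPM and replicate 1 held 899 CPM, so the group spanned the levels of both wild-type groups. The knock-out difference in old mice was 0.58 ± 0.27 (adjusted p = 0.16), and -0.15 without replicates 2 and 3, the libraries high in Y-linked reads. Without old knock-out replicate 1 it was 0.86 and was called (adjusted p = 0.0304).

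Meg3 is a long non-coding RNA read from the mother's copy of the domain in which Dlk1, a membrane protein related to Notch ligands that keeps precursors undifferentiated, is read from the father's. Meg3 was at 84.0, 58.8 and 86.0 CPM in young and 41.0, 73.4 and 47.1 CPM in old wild type. It was at 48.7, 26.6 and 72.1 CPM in young knock-out and at 31.6, 20.7 and 29.3 CPM in old knock-out. The 3 old knock-out libraries lay below all 3 old wild-type libraries, a log2 fold change of -0.997 ± 0.34 (adjusted p = 0.0666, edgeR), while the other groups overlapped with those they were compared with. With age Meg3 differed by -0.51 ± 0.33 in wild type (adjusted p = 0.533) and -0.85 ± 0.35 in the knock-out (adjusted p = 0.464).

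The long RNAs downstream of Meg3, thought to be processed from the same transcription unit, were measured as separate genes. Rian, host of small nucleolar RNAs, was at 110 ± 19.2 CPM in young and 64.6 ± 10.8 in old wild type and at 131 ± 47.6 and 77.1 ± 22.8 CPM in young and old knock-out. Its age difference was -0.77 ± 0.27 in each genotype (adjusted p = 0.203 in wild type and 0.374 in the knock-out). Mirg, host of microRNAs, was at 11.9 ± 4.43, 5.33 ± 0.383, 7.14 ± 2.22 and 3.98 ± 1.22 CPM in the same order of groups, an age difference of -1.14 ± 0.32 in wild type (adjusted p = 0.106) and -0.87 in the knock-out (adjusted p = 0.442). Rtl1, a retrotransposon-derived gene on the father's copy, was at 3.58 to 6.67 CPM on average. All 3 non-coding RNAs had a lower mean in old than in young mice of both genotypes, and no call was made.

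Dlk1 was at the edge of detection. It had 8, 1 and 6 reads in the young wild-type libraries and 2, 3 and 0 in the old ones. All 6 knock-out libraries had 0. The 20 wild-type reads among 76194582 correspond to 0.263 CPM, and 0 reads among 50506427 allow up to 0.0594 CPM in the knock-out (3 counts over both knock-out groups). The wild-type value was 4.42-fold that limit. The counting error of the 20 wild-type reads is not included, so 4.42 is not a lower bound. Dlk1 was not tested because it failed the filter on low counts, and Ttr was likewise at 0 in the 6 knock-out libraries.

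The further imprinted genes often grouped with these in a co-expressed network numbered 7, all tested. None was called for age in either genotype or for the interaction. For age in wild type the old libraries lay wholly below the young for 5 of the 7, where 13.8% of all genes did so, with a median log2 fold change of -0.52 against 0.01 over all genes; Slc38a4, an amino-acid transporter, was at 91.0 ± 10.1 CPM in young and 26.0 ± 3.83 in old wild type (-1.80, adjusted p = 0.135), and Sgce, a sarcoglycan, at 53.8 ± 4.63 and 37.4 ± 3.11 CPM (-0.53, adjusted p = 0.0711). With knock-out in old mice 1 rose and 2 fell (9.52% and 7.21% of all genes): Dcn, the collagen-binding proteoglycan decorin of connective tissue cells, rose by 3.93 on the log2 scale from 19.8 ± 2.01 to 305 ± 213 CPM, and Nnat fell by 1.53 and Gnas, a G-protein subunit, by 0.82. With knock-out in young mice Dcn rose by 2.31 and Gnas fell by 0.92 (10.9% and 10% of all genes). With GC and length offsets the calls of Nnat (-1.26) and Gnas (-0.52) in old mice and of Dcn (1.71) in young mice were lost, and those of Dcn in old and Gnas in young mice were kept. Of the 10 fibroblast and fibro-adipogenic markers, 1 rose in old knock-out (Lum, another proteoglycan, by 3.26) and 1 fell (Tcf7l2, -1.03), and 6 of 8 tendon markers were called higher there; their part in the Dcn result was not tested.

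Of 25 genes found that border the named genes in their imprinted domains, 19 were tested. Ageing gave no call in either genotype, with 12 of 19 fitted lower and 6 wholly lower in old wild type (13.8% of all genes were wholly lower). With knock-out, 2 rose and 1 fell in old mice (Ube3a, Copg2 and Cobl), and 2 rose and 3 fell in young mice (Ube3a and Copg2, and Snrpn, Tssc4 and Cd81). Both counts are near the background of 9.52% higher and 7.21% lower in old and 10.9% and 10% in young mice. Of these calls, Cobl in old mice and Snrpn in young mice were kept with GC and length offsets and the other calls were lost. Copg2, the coatomer gene that overlaps the end of Mest, rose by 0.52 and 0.46 in old and young mice. The sources used here do not say whether reads were counted by strand, so reads of such overlapping genes may be shared.

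Of 17 tested genes that write, read or keep DNA methylation, none was called for age in either genotype or for the interaction. In old mice 3 rose and 1 fell in the knock-out (9.52% and 7.21% of all genes), and in young mice 4 rose and 1 fell (10.9% and 10%). Counts this small are not read as a result about these genes as a set. Hells, a chromatin remodeller needed for DNA methylation, rose with knock-out to 37.6 ± 12.5 CPM, against 12.96 ± 3.02 CPM in wild type (log2 fold change 1.53, adjusted p = 0.00433, edgeR). Smchd1, which represses imprinted clusters and the inactive X, rose by 0.60 and Atrx by 0.58, and Tet3, which oxidises methylated cytosine, fell by 0.64. In young mice Smchd1 rose by 0.99, Atrx by 0.86, Zfp445, a guardian of imprints in the embryo, by 0.75 and Arid4b by 0.48, while Uhrf1, which recruits Dnmt1 to copied DNA, fell by 0.86. With GC and length offsets none of these 5 young calls remained, and in old mice those of Hells and Tet3 were kept and those of Smchd1 (0.28) and Atrx (0.12) were lost. Dnmt1, the maintenance methyltransferase, was at 262 ± 6.64, 276 ± 34.3, 191 ± 30.5 and 236 ± 44.6 CPM in young wild type, old wild type, young knock-out and old knock-out and was called in no comparison.

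The patterns of the named genes over the 12 libraries were compared with one another and with 11686 genes of mean log2 CPM over 1. These correlations describe libraries that share group, genotype and GC composition. Among the named genes the closest pairs were Peg3 and Grb10 (Pearson r = 0.902) and Cdkn1c and Plagl1 (0.87), followed by Meg3 and Igf2 (0.777); Igf2 and Grb10 ran opposite (-0.63), as did Meg3 and Grb10 (-0.611). The genes most like Ndn were Ankrd13a (0.94), Ror2, a receptor for Wnt5a (0.917), and Ccrn4l (0.901), none on the chromosome of Ndn. Their rank correlations with Ndn (Spearman) were lower, at 0.762, 0.72 and 0.664. The genes most like Igf2 were Lgals3bp (0.96), Rgma (0.958) and Thra, a thyroid hormone receptor (0.957). Mest was most like Frmpd1 (0.946) and Tsga14 (0.921); Tsga14, now called Cep41, is its neighbour on chromosome 6, with 0 coding genes starting between the 2 in GRCm38.p6. Meg3 was most like Iqsec2 (0.971), Grb10 like Pigk (0.953), Plagl1 like Nrk (0.947), Cdkn1c like 1700025G04Rik (0.938) and Peg3 like Rap1gds1 (0.928).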

How the data were processed

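Gene-level read counts of 12 libraries (TruSeq Stranded Total RNA kit) were used as the authors deposited them, 1 table per library. Per the submitters' processing notes, the tools were TopHat, HTSeq and DESeq2 and the genome build mm9; versions and the strand setting of the counting are not given in the sources used here. The 5 summary lines at the end of each table entered neither library sizes nor tests. Reads outside genes were 32.2% to 70.8% of singly placed reads. Genes passing edgeR's filterByExpr (13540 of 22310) were fitted over all 12 libraries with 1 mean per group (edgeR 4.0.16, TMM scaling, robust quasi-likelihood test, R 4.3.3), with Benjamini-Hochberg adjustment over all 13540 and a threshold of 0.05. CPM values use TMM-scaled library sizes, except Y-linked sums and values given with a read total, which use unscaled totals. Floors use 3 counts and unscaled totals, and cover counting error only. Exon lengths and GC content came from GENCODE annotation of GRCm38, not the authors' annotation, and were found for 92.3% of symbols. The procedure was tested on simulated counts with known changes. Alternatives were DESeq2 1.42.0, other scaling, no filter, a replicate block, GC and length offsets, only the groups compared, leaving out the 2 libraries high in Y-linked reads or the 2 with most reads outside genes, and leaving out each library. The members, gene lists and tests were chosen with earlier results of these data known. All 10 members were named. Of each other list, up to 4 called genes of largest change per comparison, or up to 2 of highest mean CPM, were named. For likeness the genes of highest correlation over the 12 libraries were named. Flanking genes of a member and Dnmt1 were chosen after their values were seen. So were Slc38a4, Sgce and Arid4b, which fall outside the rule for their lists.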

Additional observations from a re-analysis of the deposited data

Results flagged for a closer look

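Ndn was the 1 tested imprinted gene whose age effect differed between genotypes past the threshold: the effect in the knock-out minus that in wild type was 2.54 ± 0.30 on the log2 scale (SE, edgeR's quasi-likelihood interaction term). Ndn was lower in all 3 old than in all 3 young wild-type libraries and higher in all 3 old than in all 3 young knock-out libraries. The gene was chosen with this result known, and the call was past the threshold in 11 of the 20 alternatives run, always with the same sign.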

How the results depend on the processing

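Over the alternatives, 750 of the log2 fold changes of the 8 tested genes kept direction and side of the threshold, 30 came past it, 31 were lost and 21 changed sign; except where given, the cause was not tested. Among all genes, ageing in wild type (144 calls) gave 83 with library size only, 462 with DESeq2, 2 without the 2 libraries with most reads outside genes and 913 with only the groups compared. Ageing in the knock-out (2) gave 38 with no filter, 139 with DESeq2, 18 with GC and length offsets, 1 without the libraries with most reads outside genes, 15 without the 2 libraries high in Y-linked reads and 0 with only the groups compared. Knock-out in old mice (2265) gave 1340 with GC and length offsets, 3 without the libraries with most reads outside genes and 121 without those high in Y-linked reads. Knock-out in young mice (2831) gave 1174 with GC and length offsets and 1536 with only the groups compared. The interaction (2) gave 4 with library size only, 6 with no filter, 58 with DESeq2, 1 with GC and length offsets and 0 without either pair of libraries; it uses all groups. Of the 8 tested genes, ageing in wild type (2) gave 0 without the libraries with most reads outside genes and 5 with only the groups compared; ageing in the knock-out (0) gave 1 with no filter, 2 with DESeq2 and 1 with GC and length offsets; knock-out in old mice (3) gave 5 with DESeq2, 0 without the libraries with most reads outside genes and 1 without those high in Y-linked reads; knock-out in young mice (1) gave 2 with DESeq2; the interaction (1) gave 0 without either pair.

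Signs changed without the libraries high in Y-linked reads for ageing in the knock-out (Igf2 0.22, Mest -0.62) and knock-out in old mice (Mest -0.15). They changed with GC and length offsets for ageing in the knock-out (Peg3 0.094), knock-out in old mice (Cdkn1c 0.034), knock-out in young mice (Cdkn1c 0.088, Peg3 -0.035) and the interaction (Cdkn1c -0.055). The Cdkn1c interaction was -0.046 with library size only and -0.017 without the libraries with most reads outside genes. With 1 library left out, fewer samples were fitted. Calls among all genes then ran from 6 to 458 for ageing in wild type, 0 to 102 for ageing in the knock-out, 779 to 3144 and 1479 to 3140 for knock-out in old and young mice, and 0 to 116 for the interaction; among the 8 tested genes they ran from 0 to 3, 0 to 3, 1 to 5, 1 to 2 and 0 to 1. The values that changed sign ran from -0.012 to 0.202 (Grb10), -0.084 to 0.416 (Mest) and -0.19 to 0.14 (Peg3) for ageing in the knock-out, -0.317 to 0.055 (Plagl1, knock-out in old mice), -0.427 to 0.012 (Mest, knock-out in young mice), and -0.01 to 0.19 (Cdkn1c) and -0.52 to 0.61 (Igf2) for the interaction. Library size only moved the split of calls for knock-out in old mice from 1289 higher and 976 lower to 359 and 1827, and in young mice from 1477 and 1354 to 865 and 1278.

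The labels give the groups the same replicate numbers, but same-numbered libraries did not deviate together (correlations from -0.235 to 0.206), so no pairing by number was seen. With 3 libraries per group this check cannot exclude a shared day or batch. With a replicate block, ageing in wild type gave 79 calls among all genes and ageing in the knock-out 0, and the sign of Peg3 for ageing in the knock-out changed (0.01). Depth limits Dlk1, with 20 reads in all, and Ndn, with as few as 49 reads in a library.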

Other observations

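Of 18 further imprinted genes tested outside these domains, Zdbf2, a gene read from the father's copy that affects feeding and growth after birth, was the 1 called. Over all genes 9.52% were called higher and 7.21% lower with knock-out in old mice, and 10.9% and 10% in young mice. The 1 gene called among 18 is therefore not read as a result about these genes as a set. Zdbf2 was at 57.4 ± 25.6 CPM in young wild type, 33.4 ± 9.17 in old wild type, 125 ± 13.9 in young knock-out and 71.2 ± 5.73 in old knock-out (SD, n = 3). It rose with knock-out by a log2 fold change of 1.09 in old mice (adjusted p = 0.0205, edgeR's quasi-likelihood test) and 1.12 in young mice (adjusted p = 0.0129). With GC and length offsets the values were 0.77 (adjusted p = 0.049) and 0.67 (adjusted p = 0.0798), so the young call was lost. Peg10, a retrotransposon-derived gene read from the father's copy and chosen after its values were seen, was at 195 ± 102, 87.3 ± 3.98, 156 ± 71.6 and 94.7 ± 14.2 CPM in young wild type, old wild type, young knock-out and old knock-out, and was called in no comparison.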
